A study of Mus musculus with 6 samples.

Results

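The cluster of miR-132 and miR-212 was measured in mouse kidney through 4 of the 495 mature miRNAs in the count table. They were the 3p arms mmu-miR-132-3p and mmu-miR-212-3p with the 5p arms mmu-miR-132-5p and mmu-miR-212-5p. The members were taken by name, as every entry that starts with mmu-miR-132- or mmu-miR-212-, and each of the 4 had a single entry. Small RNA from whole kidney tissue of male balb/c mice was sequenced in a CIH group (chronic intermittent hypoxia, n = 3) and a Control group (n = 3). CIH mice breathed air whose oxygen fell to 6% and returned to 21% in cycles, 30 times an hour and 8 hours a day for 8 weeks, and Control mice received room air in the chamber over the same 8 weeks. The sources used here give no age and name no transgene or drug for either group. Whether a sample stands for a mouse of its own is not stated, and p-values therefore measure only the spread between these 6 samples. Library totals ran from 5905653 to 7622445 counts in CIH and from 5431797 to 7741499 counts in Control.

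miR-132 and miR-212 are cut from a common primary transcript whose promoter is driven by CREB, the transcription factor that cAMP and calcium signals activate, and they are best known as activity-induced miRNAs of neurons. Outside the brain they are induced in mouse heart muscle cells by hypertrophic stimuli, and angiotensin II raises them in the heart, aorta and kidney of rats. From each hairpin the enzymes Drosha and Dicer free a duplex of a 5p and a 3p arm, and the arm loaded into Argonaute finds its targets mainly through the seed, bases 2 to 8 from its 5′ end. The 3p arms of both hairpins share a seed and therefore most predicted targets.

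The mature sequences are shown because the seed in capitals groups the 4 miRNAs into 3 seed classes, with both 3p arms in the same class (RefSeq, GRCm38.p6, 5′ to 3′):
mmu-miR-132-3p: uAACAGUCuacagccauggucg
mmu-miR-212-3p: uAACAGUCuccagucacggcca
mmu-miR-132-5p: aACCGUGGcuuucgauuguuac
mmu-miR-212-5p: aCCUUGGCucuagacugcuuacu
The seed AACAGUC belonged to no other mature mouse miRNA of the RefSeq table used here, and the seeds ACCGUGG and CCUUGGC each to 1 miRNA. From the 5′ end, mmu-miR-132-3p and mmu-miR-212-3p were identical over the first 9 bases and at 17 of 22 positions. Their differences, with the base of mmu-miR-132-3p first and positions counted from 1 at the 5′ end, were A10C, C14U, U17C, U20C and G22A, so a full-length read of 1 arm differs from the other arm at 5 bases.

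The hairpins show how the arms lie on the precursors, with the mature arms in capitals, the 5p arm first:
Mir212: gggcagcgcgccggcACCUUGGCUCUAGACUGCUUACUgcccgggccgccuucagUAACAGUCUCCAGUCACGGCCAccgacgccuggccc
Mir132: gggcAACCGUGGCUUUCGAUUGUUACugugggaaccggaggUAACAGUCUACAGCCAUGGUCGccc
Mir212 lies at chr11:75173388-75173478 and Mir132 at chr11:75173682-75173747 on the plus strand of GRCm38, with 203 bases between them. In GENCODE M21 both fall in the first intron, 1380 bases long, of the noncoding transcript 1700016P03Rik, between its exon 1 and exon 2. The protein-coding gene Hic1 lies upstream on the opposite strand, and Ovca2, also on that strand, overlaps the 3′ part of the host. All 4 members matched the RefSeq table by name.

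**Figure D1:**
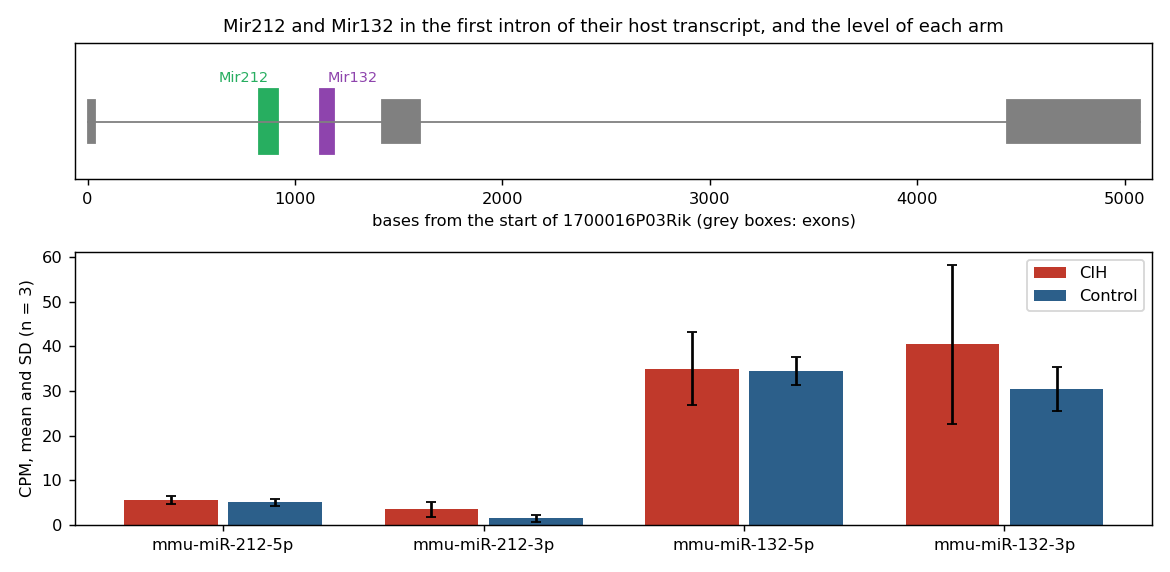
The upper drawing places Mir212 and Mir132 by their distance in bases from the start of the host transcript (grey boxes, exons), and the bars below give the CPM of each arm in CIH and Control (mean and SD, n = 3). Both arms of Mir132 stand at 30.5 to 40.5 CPM and both arms of Mir212 at 1.47 to 5.61 CPM.

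In these kidneys the cluster drew most of its reads from miR-132. Its 4 arms summed to 84.6 ± 28.2 CPM in CIH and 71.4 ± 5.68 CPM in Control (CPM, read counts scaled to a common library size by TMM, SD, n = 3). The sum was 67.5, 117.1 and 69.1 CPM in CIH replicates 1, 2 and 3, and 68.7, 67.5 and 77.9 CPM in Control replicates 1, 2 and 3. CIH replicate 2 was the highest library, and the other CIH libraries lay within the Control range. By mean CPM over all libraries, mmu-miR-132-3p ranked 229, mmu-miR-132-5p 232, mmu-miR-212-5p 348 and mmu-miR-212-3p 409 among the 495 miRNAs. The arms of miR-132 did not differ from each other beyond their spread, since mmu-miR-132-3p exceeded mmu-miR-132-5p in 3 of 6 libraries. Within Mir212, the 5p arm exceeded the 3p arm in all 6 libraries. All 4 members had counts in every library and were tested.

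mmu-miR-212-3p, the scarcer 3p arm, was the member with the clearest difference. It had 24, 39 and 13 reads in CIH, against 4, 10 and 14 reads in Control. As CPM these were 3.01, 5.32 and 2.12 in CIH, against 0.52, 1.81 and 2.08 in Control. Every CIH library lay above every Control library, but CIH replicate 3 and Control replicate 3 were nearly level. Counting error alone gives CIH replicate 3 an interval of 1.13 to 3.63 CPM and Control replicate 3 one of 1.14 to 3.49 CPM (exact Poisson, 95%, which covers counting error only). The group means were 3.49 ± 1.65 CPM in CIH and 1.47 ± 0.834 CPM in Control (SD, n = 3), a log2 fold change of 1.31 (standard error 0.49) or 2.48-fold with a 95% interval of 1.17 to 5.27. In edgeR's quasi-likelihood test the unadjusted p was 0.023 and the adjusted p over all 495 miRNAs was 0.58. The exact permutation test over the libraries gave p = 0.1, two-sided, the smallest that 3 samples against 3 allow.

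mmu-miR-212-3p was past the thresholds that the study used, an unadjusted p of at most 0.05 and a fold change of at least 1.5. Of all 495 miRNAs, 10 (2.02%) passed them with CIH higher, this miRNA included, and 19 (3.84%) in either direction. It stood at position 15 of 495 by p. Groups that did not overlap, with CIH higher, occurred in 26 of 495 miRNAs (5.25%), and mmu-miR-212-3p was the only member of the 4 among them. No miRNA passed an adjusted p of 0.05 in edgeR (0%), where 39 (7.88%) had an unadjusted p under 0.05. By edgeR's exact test, DESeq2 and limma-voom 0 passed as well, with 35, 29 and 38 under an unadjusted p of 0.05. The study had selected mmu-miR-212-3p on these libraries, so its unadjusted p is not independent evidence. The paper also reports an RT-qPCR assay of this miRNA, as upregulated and with a trend similar to its sequencing. Those measurements were not analysed here, and whether they came from the same samples is not stated. In the libraries, the log2 fold change of mmu-miR-212-3p was 0.82 without Control replicate 1 (edgeR unadjusted p = 0.090). It was 0.88 without CIH replicate 2 (edgeR unadjusted p = 0.12), and the call was lost in both cases. Without any other library it stayed between 1.42 and 1.70 and past the thresholds.

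mmu-miR-132-3p, the main 3p arm and the best studied product of the locus, was not called. It had 28.1, 60.9 and 32.5 CPM in CIH, against 26.6, 28.9 and 35.9 CPM in Control. CIH replicate 2 stood alone at the top, and the other CIH libraries lay inside the Control range. The means were 40.5 ± 17.8 CPM in CIH and 30.5 ± 4.84 CPM in Control (SD, n = 3), which edgeR put at 0.41 on the log2 scale (SE 0.27, adjusted p = 0.79), with an interval of 0.873-fold to 2.03-fold. The exact permutation test gave p = 0.6. The log2 fold change was -0.0091 without CIH replicate 2, and 0.62 without CIH replicate 1, where it passed the study thresholds (edgeR unadjusted p = 0.034).

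The 5p arms showed smaller fitted differences. mmu-miR-132-5p had 31.5, 44.4 and 29.1 CPM in CIH, against 37.2, 31.0 and 35.02 CPM in Control. Its CIH libraries lay both above and below all Control libraries, and edgeR put the log2 fold change at 0.02 (SE 0.18, adjusted p = 0.99), with an interval of 0.764-fold to 1.35-fold. mmu-miR-212-5p had 4.89, 6.55 and 5.39 CPM in CIH, against 4.42, 5.81 and 4.90 CPM in Control. These groups overlapped, and edgeR put the log2 fold change at 0.16 (SE 0.22, adjusted p = 0.91), with an interval of 0.801-fold to 1.57-fold. Its 33 to 48 reads a library in CIH and 32 to 34 in Control varied about as much as counting error, since the CV of its CPM was 15.2% in CIH and 14.01% in Control where counting alone gives 15.8% and 17.4%. For mmu-miR-132-3p the CV was 43.9% in CIH and 15.9% in Control, and counting alone gives 5.88% and 7.04%.

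**Figure D2:**
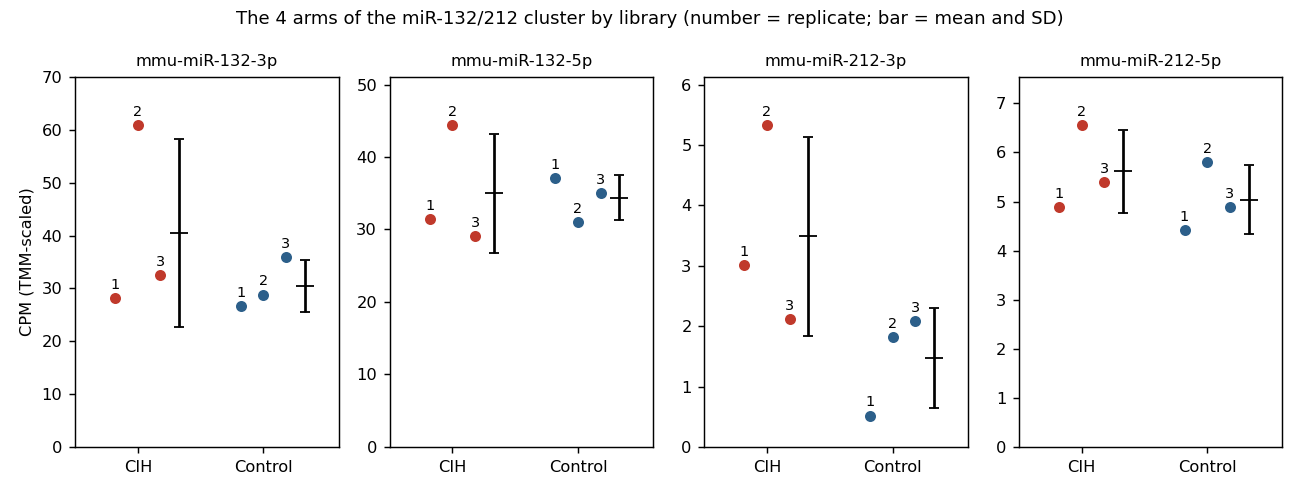
CPM of the 4 arms in each library, CIH left and Control right, with the replicate number above each point and a bar for the mean and SD (n = 3). CIH replicate 2 is the highest library for all 4 arms, and only mmu-miR-212-3p has all 3 CIH points above the Control points, 2.12 CPM being the lowest in CIH and 2.08 CPM the highest in Control.

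CIH replicate 2 held the highest value of every member. It exceeded the next library 1.77 times for mmu-miR-212-3p, 1.70 times for mmu-miR-132-3p, 1.19 times for mmu-miR-132-5p and 1.13 times for mmu-miR-212-5p. This library was the highest of the 6 for 90 of the 495 miRNAs (18.2%). The reads carrying the seed AACAGUC, the sum of both 3p arms, came to 31.1, 66.2 and 34.6 CPM in CIH, against 27.2, 30.7 and 38.0 CPM in Control. mmu-miR-132-3p made up most of this sum, and the groups overlapped. In whole tissue, a change in RNA per cell and a change in the number of cells that hold it cannot be told apart.

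**Figure D3:**
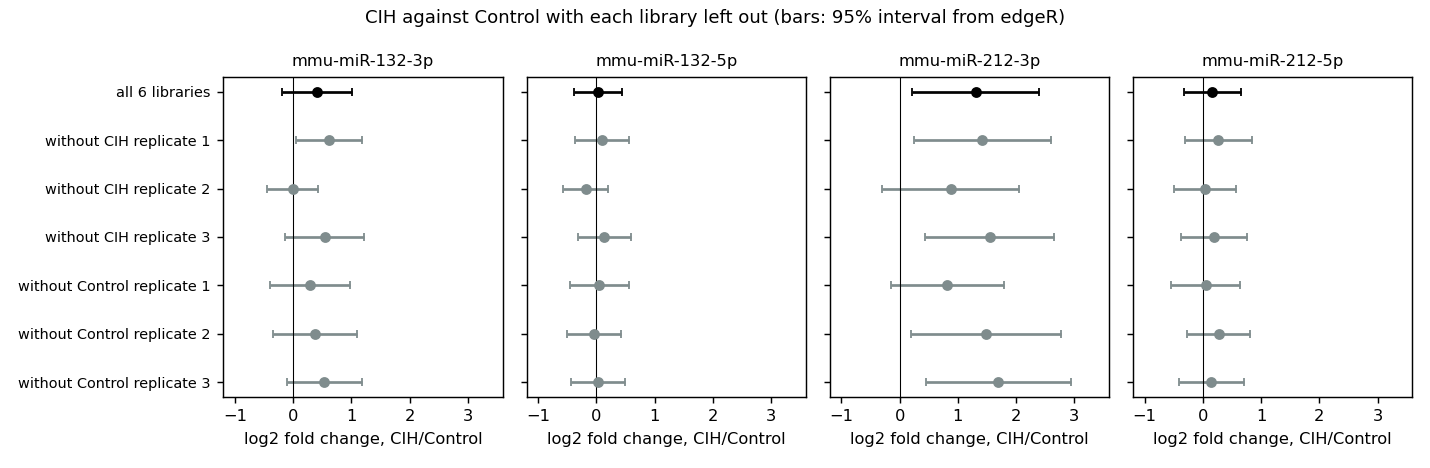
log2 fold change of CIH over Control for each arm with all 6 libraries (black) and with each library left out (grey), with the 95% interval from edgeR. For mmu-miR-212-3p the interval reaches 0 only without CIH replicate 2 or Control replicate 1, and for mmu-miR-132-3p the estimate falls to -0.0091 without CIH replicate 2.

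The balance between the hairpins asks whether both miRNAs of the transcript changed alike, and needs no library scaling. mmu-miR-212-3p made up 9.68%, 8.04% and 6.13% of the reads of both 3p arms in CIH replicates 1, 2 and 3, against 1.91%, 5.92% and 5.47% in Control replicates 1, 2 and 3. All CIH shares were above all Control shares. However, the lowest of CIH (95% Clopper-Pearson interval 3.31% to 10.3%) and the highest of Control (2.87% to 10.6%) cannot be separated at this depth. The study had selected mmu-miR-212-3p on these libraries, so the separation of these shares is not independent evidence. How often ratios of other miRNA pairs separate was not tested. The mean log2 ratio of mmu-miR-212-3p to mmu-miR-132-3p was -3.53 ± 0.346 in CIH and -4.50 ± 0.880 in Control (SD, n = 3), a difference of 0.97 (exact permutation test, p = 0.1, the smallest possible, and 0.4 adjusted over 4 ratios). Without Control replicate 1 the difference was 0.47. For the 5p arms, the log2 ratio of mmu-miR-212-5p to mmu-miR-132-5p was -2.61 ± 0.174 in CIH and -2.76 ± 0.331 in Control (SD, n = 3, exact permutation test, p = 0.5, and 0.5 adjusted).

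Within each hairpin the 3p arm had the larger CIH to Control difference. In Mir212 the 3p arm held 38.1%, 44.8% and 28.3% of the reads of both arms in CIH, against 10.5%, 23.8% and 29.8% in Control. Control replicate 1 had the lowest share (95% interval 2.94% to 24.8%) and CIH replicate 2 the highest (34.1% to 55.9%), and the groups overlapped through CIH replicate 3. The log2 ratio of 3p to 5p differed by 1.16 between CIH and Control (exact permutation test, p = 0.2, and 0.4 adjusted over the 4 ratios), and by 0.65 without Control replicate 1. In Mir132 the 3p share was 47.2%, 57.8% and 52.8% in CIH, against 41.8%, 48.2% and 50.6% in Control. Here too Control replicate 1 was lowest and CIH replicate 2 highest, and the log2 ratio differed by 0.33 (exact permutation test, p = 0.3, and 0.4 adjusted), by 0.18 without CIH replicate 2 and by 0.19 without Control replicate 1. Over the 137 hairpins with both arms in the table, the median difference was -0.0018 and 68 were positive. The difference of Mir212 was reached or exceeded by 2 of the 137, itself included, and that of Mir132 by 13. Its rank is not independent evidence for Mir212, since the study had selected mmu-miR-212-3p on these libraries. That arm had 4 to 39 reads a library, and the 137 were not matched for depth. The groups did not overlap in 11 of the 137, in either direction, and neither Mir212 nor Mir132 was among them. The median deviation of the arm ratio over these 137 lay between -0.075 and 0.077 on the log2 scale in every library. The ratios other than that of the 3p arms were chosen after their counts were seen.

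**Figure D4:**
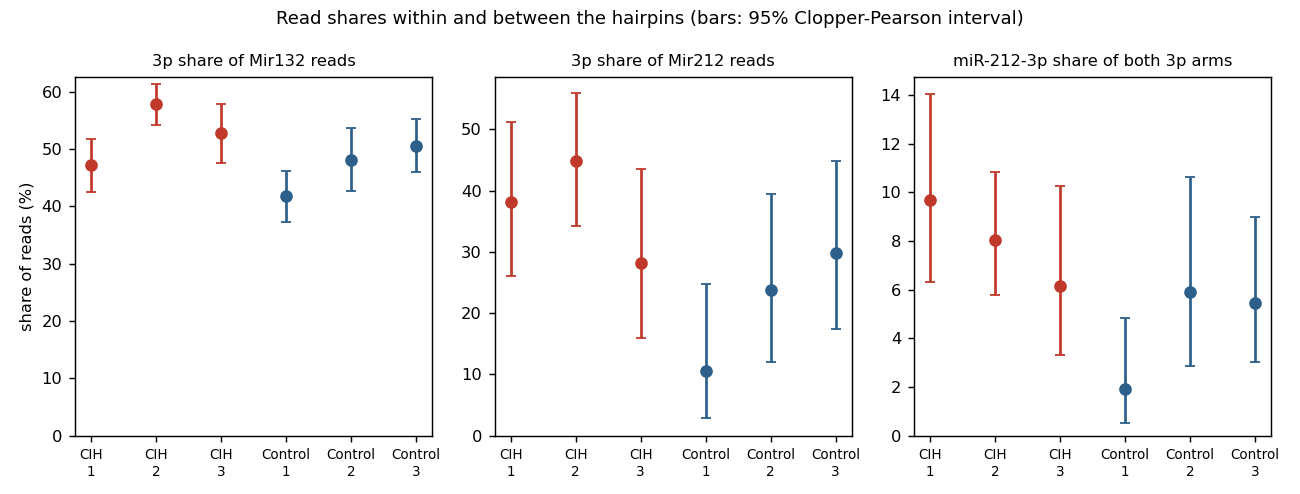
Share of reads in percent for each library, CIH left and Control right, with 95% Clopper-Pearson intervals, for the 3p arm within Mir132, the 3p arm within Mir212, and mmu-miR-212-3p within both 3p arms. Control replicate 1 is lowest in all 3 plots, at 41.8%, 10.5% and 1.91%.

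Both 3p arms come from the same transcript, and their correlation over the 6 libraries was positive but did not pass a permutation test. Pearson's r of log2(CPM + 0.5) was 0.76 (exact permutation test, p = 0.13, and 0.20 adjusted over 6 pairs of arms) and Spearman's rho 0.60 (exact permutation test, p = 0.24). Without CIH replicate 2 and Control replicate 3, the libraries farthest from the median of mmu-miR-132-3p, r was 0.53, and without CIH replicate 2 alone it was 0.45. After subtraction of the group means r was 0.71. mmu-miR-132-3p and mmu-miR-132-5p, arms of a single hairpin, had r = 0.73 and rho = 0.20 (exact permutation tests, p = 0.11 and 0.71). Without the same 2 libraries r was -0.87, and without CIH replicate 2 alone it was -0.16, so that relation rests on CIH replicate 2. mmu-miR-212-3p and mmu-miR-212-5p had r = 0.76 and rho = 0.49 (exact permutation tests, p = 0.086 and 0.36). For this pair r was -0.71 without both CIH replicate 2 and Control replicate 1. With 1 library left out it stayed positive, from 0.52 without CIH replicate 2 to 0.89. The 5p arms had r = 0.31 and rho = -0.03 (exact permutation tests, p = 0.54 and 1), and r was -0.81 without CIH replicates 2 and 3. mmu-miR-132-3p with mmu-miR-212-5p had r = 0.76 and rho = 0.77 (exact permutation tests, p = 0.074 and 0.10), and r was 0.64 without CIH replicate 2 and Control replicate 3 but 0.24 without CIH replicate 2 alone. mmu-miR-132-5p with mmu-miR-212-3p had r = 0.27 and rho = 0.14 (exact permutation tests, p = 0.62 and 0.80), and r was -0.77 without CIH replicates 2 and 3. Adjusted over the 6 pairs, the smallest exact permutation p was 0.20 for r and 0.62 for rho. The arm ratios of the 2 hairpins had r = 0.81 and rho = 0.60 (exact permutation tests, p = 0.063 and 0.24), and r was -0.34 without CIH replicate 2 and Control replicate 1.

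**Figure D5:**
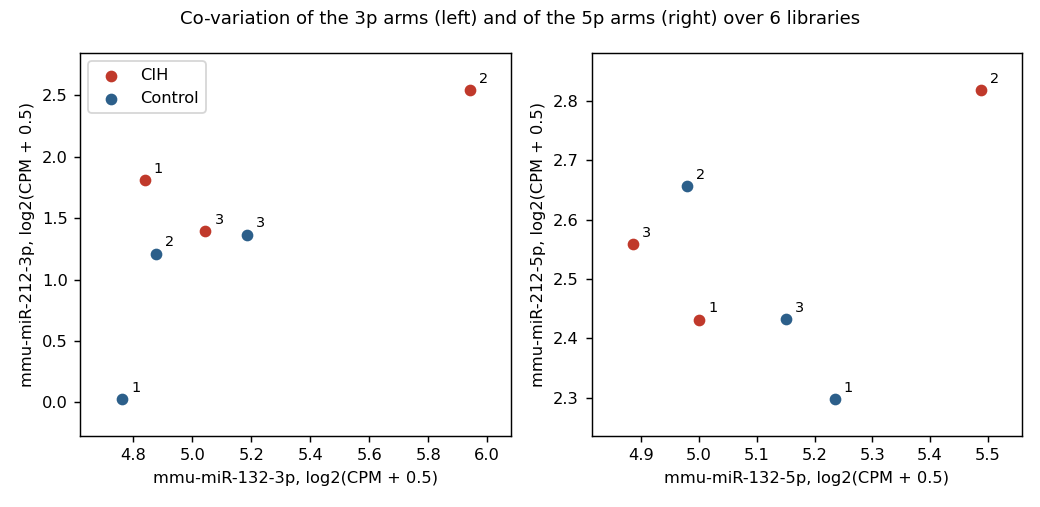
log2(CPM + 0.5) of mmu-miR-212-3p against mmu-miR-132-3p (left) and of mmu-miR-212-5p against mmu-miR-132-5p (right), each point a library with its replicate number. CIH replicate 2 lies at the upper right of both plots, and r is 0.76 for the 3p arms and 0.31 for the 5p arms.

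Other miRNAs made from common transcripts varied together to very different degrees. Over 22 further pairs, r over the same 6 libraries had a median of 0.15 and ran from -0.93 for mmu-miR-143-3p with mmu-miR-145a-5p to 0.98 for mmu-miR-17-5p with mmu-miR-20a-5p, and 7 pairs exceeded the 3p arms of the cluster. The median was 0.32 without CIH replicate 1, 0.50 without Control replicate 2, 0.51 without Control replicate 3 and 0.41 with scaling by library totals only. Over all 122265 pairs of miRNAs the median was -0.0022, and 5.97% reached the r of the 3p arms. Some paired miRNAs, such as mmu-miR-29b-3p, are also made from another hairpin, so their r does not reflect a single transcript. These values share libraries and depth and are a description.

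The miRNAs most like each member were sought among those with a mean of at least 10 CPM, over the same 6 libraries. For mmu-miR-132-3p they were mmu-miR-146a-5p (r = 0.98), which NF-κB induces, then mmu-miR-99b-3p (0.93), the p53-induced mmu-miR-34a-5p (0.91), mmu-miR-30e-3p (0.88) and mmu-miR-375-3p (0.86). mmu-miR-146a-5p had 2796, 3842 and 2783 CPM in CIH, against 2736, 2737 and 2991 CPM in Control, and like mmu-miR-132-3p was highest in CIH replicate 2. Without that library its r was 0.84, and the r of the other 4 ran from -0.62 for mmu-miR-375-3p to 0.98 for mmu-miR-30e-3p. For mmu-miR-212-3p they were mmu-miR-34a-5p (0.94), mmu-miR-582-3p (0.94), mmu-miR-532-5p (0.92), mmu-miR-106b-3p (0.92) and mmu-miR-324-5p (0.90). mmu-miR-132-3p came at position 11 of that order. Without CIH replicate 2 the r of the 5 named first stayed between 0.83 and 0.92. Each of those 5, like mmu-miR-212-3p itself, was lowest in Control replicate 1, and r without that library was not computed. For mmu-miR-132-5p they were mmu-miR-146a-5p (0.83), mmu-miR-1a-3p (0.83), mmu-miR-3470b (0.83), mmu-miR-103-3p (0.79) and mmu-miR-146b-5p (0.78), and without CIH replicate 2 these r were 0.24, 0.74, 0.55, 0.84 and -0.09. For mmu-miR-212-5p they were mmu-let-7d-3p, mmu-miR-361-5p, mmu-miR-652-3p, mmu-miR-27b-5p and mmu-miR-196a-5p. Their r ran from 0.84 down to 0.81, and from 0.55 to 0.73 without CIH replicate 2. All these lists hold the highest r in a pool of 300 miRNAs over 6 libraries, and how high r runs by chance was not tested.

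Other miRNAs that signalling or hypoxia induces were described as a list of 8, all measured. Of these 0 passed the study thresholds, which 3.84% of all 495 miRNAs did, or an adjusted p of 0.05 in edgeR, which 0% did. Its median log2 fold change was 0.0017, beside -0.0030 over all 495, with 4 positive and 4 negative, and its sign turned under several alternatives. The serum-induced mmu-miR-21a-5p was at 0.10, mmu-miR-22-3p at 0.05, mmu-miR-146a-5p at 0.15 and the immune mmu-miR-155-5p at 0.08. mmu-miR-134-5p, an activity-regulated miRNA of neurons, averaged 2.69 ± 1.35 CPM in CIH and 3.26 ± 0.962 CPM in Control (SD, n = 3). mmu-miR-210-3p, a target of the hypoxia-inducible factor, was at -0.32 (standard error 0.16, adjusted p = 0.71 from edgeR), and mmu-miR-221-3p and mmu-miR-222-3p were at -0.08 and -0.04.

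Markers of the cell types that a kidney sample could hold were summed in each library. The 6 tubule miRNAs summed to 265202 to 295653 CPM in CIH and 281815 to 349987 CPM in Control. Of 8 neuronal miRNAs 6 were measured, at a sum of 801 to 1192 CPM in CIH and 1160 to 1258 CPM in Control. Most of that sum was mmu-miR-9-5p, with a mean of 727 CPM in CIH and 910 CPM in Control. Of the 6, 3 had a positive and 3 a negative log2 fold change, from -0.48 for mmu-miR-9-3p to 0.21 for mmu-miR-138-5p. The defining mmu-miR-124-3p and mmu-miR-137-3p had no entry in the count table. The 5 leukocyte miRNAs summed to 977 to 1097 CPM in CIH and 929.9 to 1084 CPM in Control, with log2 fold changes from -0.24 for mmu-miR-223-3p to 0.08 for mmu-miR-155-5p, 2 of them positive and 3 negative. Endothelial, smooth muscle, erythroid and striated muscle sums overlapped between the groups, and mmu-miR-205-5p of urothelium was at 0.50 to 29.6 CPM in CIH and 18.7 to 38.8 CPM in Control. Single members could still separate. The erythroid mmu-miR-486a-5p was at 578 to 650 CPM in CIH and 386 to 535 CPM in Control. The tubule mmu-miR-204-5p was at 40.5 to 53.4 CPM in CIH and 59.2 to 60.2 CPM in Control. Of all 495 miRNAs, 26 separated with CIH higher and 36 with CIH lower. The pancreas list had 2 of its 4 members measured. It summed to 74.9, 98.3 and 76.9 CPM in CIH, against 72.9, 69.5 and 68.8 CPM in Control, so the groups did not overlap. CIH replicate 2 had the highest sum, as it had the highest value of all 4 arms and of 18.2% of all 495 miRNAs. Nearly all of that sum was the islet miRNA mmu-miR-375-3p, and the acinar mmu-miR-217-5p was at 0.50, 0.27 and 4.57 CPM in CIH and averaged 0.14 ± 0.149 CPM in Control (SD, n = 3), past the study thresholds with CIH replicate 3 highest. miR-132 and miR-212 are also known from pancreatic islets, and the part of such cells in their levels was not tested.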

How the data were processed

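Small RNA of 3 CIH and 3 Control kidney samples was sequenced. The authors trimmed adapters with cutadapt, aligned reads with Bowtie and deposited raw read counts per mature miRNA, with 584 entries for 495 miRNAs. No source used here gives the tool versions or the miRBase release. Where a miRNA had several entries, that with the most reads was used. Testing required reads in 3 or more libraries, and all 495 qualified. CIH was compared with Control in edgeR 4.0.16 (quasi-likelihood test with Benjamini-Hochberg adjustment, TMM scaling, no covariates) in R 4.3.3, and fold changes are maximum-likelihood values without a prior count. Exact tests used scipy 1.17.1, and log values a pseudocount of 0.5. The Poisson and Clopper-Pearson intervals cover counting error only, while the edgeR intervals also include the spread between libraries. limma 3.58.1, DESeq2 1.42.0, other filters, scalings and precursor treatments, a replicate block and each library left out were tried. Scripts were tested on simulated data.

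The members and lists were chosen with earlier results of these data known. Named miRNAs are the members, the 5 miRNAs most alike in profile to each of them, and listed signal-induced, neuronal and leukocyte miRNAs; any further name was picked with its values in view. The 5p arms, 3 of the 4 ratios and 5 of the 6 correlations were added once the table had been seen. Sequences and positions are from RefSeq (GRCm38.p6) and GENCODE M21. RT-qPCR and histology were not analysed here.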

Additional observations from a re-analysis of the deposited data

How the results depend on the processing

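The 4 members kept their direction and their side of the study thresholds under other scalings, tests and precursor treatments, except mmu-miR-132-5p, whose log2 fold change was -0.0094 with precursor entries summed. Under the filter of 10 CPM the arms of miR-212 were not tested. With 1 library left out, log2 fold changes ran from -0.0091 to 0.62 for mmu-miR-132-3p, from -0.18 (without CIH replicate 2) to 0.14 for mmu-miR-132-5p, where it was -0.04 without Control replicate 2, and from 0.82 to 1.70 for mmu-miR-212-3p. The number of miRNAs past the study thresholds was 19, against 2 under that filter, 10 in DESeq2, 29 with every entry tested separately, and 11 (without CIH replicate 2) to 20 with 1 library left out. The log2 difference in the ratio of mmu-miR-212-5p to mmu-miR-132-5p was 0.15, and ran from -0.00066 without Control replicate 1 to 0.33 without Control replicate 2. Without CIH replicate 2, r was -0.16 for the arms of miR-132, -0.70 for mmu-miR-132-5p with mmu-miR-212-3p and -0.80 for the 5p arms, and without Control replicate 1 these were 0.93, 0.83 and 0.61. For mmu-miR-132-3p with mmu-miR-212-5p, r was 0.93 without Control replicate 2 (exact permutation test, p = 0.042) and 0.24 without CIH replicate 2 (exact permutation test, p = 0.71). The cause of these changes was not tested. The median log2 fold change of the signal-induced list, 0.0017, was -0.018 with a filter of 1 CPM, -0.026 with entries summed, and ran from -0.10 to 0.03 with 1 library left out, below 0 without CIH replicate 1 or 2 or Control replicate 1 or 3.

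The replicate numbers gave no sign of a pairing, as deviations of same-numbered libraries correlated at -0.05, -0.01 and 0.04. Between differently numbered libraries the values ran from -0.08 to 0.08, the highest for CIH replicate 1 with Control replicate 2. With so few libraries these values cannot exclude a pairing. With the replicate block, mmu-miR-212-3p was at 1.27 and mmu-miR-132-3p at 0.34, and 21 miRNAs passed the study thresholds. With 4 to 39 reads a library, the depth of mmu-miR-212-3p limits what its shares can separate.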
